A study of Homo sapiens with 12 samples.

Results

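The comparison set 3 libraries of TIMP1 KO 1, a knockout clone of TIMP1, against 3 libraries of CRISPR Control, its edited control. Every gene whose normalised count averaged 10 or more across the 12 libraries of the series was taken, which gave 15987 of 63086. The members were thus chosen by level over all lines and not by any difference. Both lines derive from MIA PaCa-2, an established human pancreatic carcinoma cell line. CRISPR Control was edited with the CRISPR-Cas9 system, a nuclease steered to its DNA target by a guide RNA, and carries a silent point mutation that leaves the TIMP-1 protein unaltered. TIMP1 KO 1 carries a knockout made with guides against exon 4. WT, the unmodified cells, and TIMP1 KO 2, a further knockout clone, served as reference levels. All 4 lines grew without treatment in RPMI 1640 with FCS and antibiotics. Each edited genotype of this comparison is a single line, so that the effect of TIMP1 and any other difference between these clones cannot be told apart. P-values measure the spread between the 3 labelled biological replicates of a line.

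TIMP-1 is a secreted glycoprotein that binds the active site of matrix metalloproteinases, the enzymes that cut collagens and other matrix proteins. It also acts as a signalling molecule through the cell surface proteins CD63 and CD74. In pancreatic carcinoma it is found at high levels in tumour tissue and blood. The comparison asks which transcripts differ between cells with and without an intact TIMP1 gene when both have passed through editing.

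The 6 libraries held from 26908701 to 36093563 reads in genes. The 6 pairs of replicates within the lines correlated across genes with r from 0.99 to 0.993, and each pair differed by more than counting noise. All 7 markers of carcinoma epithelium and all 5 of mesenchymal-type carcinoma cells were at 10 or more in every one of the 6 libraries. The 6 acinar markers were under 10 in all of them, as were 8 of 9 immune markers, with PTPRC (CD45) at most 3.45. The summed epithelial markers ran from 56916 to 73119 in CRISPR Control and from 216644 to 224313 in TIMP1 KO 1. KRT8 alone averaged 39963 in CRISPR Control, 135667 in TIMP1 KO 1 and 129995 in WT. CDH1 went the other way within the epithelial sum, from 1424 in CRISPR Control to 128 in TIMP1 KO 1. Summed fibroblast markers, 3 of 9 at 10 or more in all 6 libraries, ran from 19185 to 22110 against 51903 to 65836. That rise was COL1A1, from a mean of 8868 to 56612, while COL3A1 fell from 9786 to 0.375 and THY1 from 1898 to 1039. Endothelial markers summed to 35.2 to 44.1 against 97.9 to 109, and islet markers to 531 to 681 against 291 to 336. KDR made most of the endothelial rise, from 11.9 to 93.3, while PECAM1 fell from 11.3 to 0. SYP made nearly all of the islet sum, at 601 against 316. The immune sum was 40.7 to 49.8 against 82.2 to 92.9, mostly CD14 at 36.5 against 83. The sums thus followed single genes or a few, and the members of a type did not move together. The part of cell identity in the results below was not tested. Levels are normalised counts throughout, that is reads divided by a library's size factor, and 3 reads correspond to about 3 normalised counts.

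TIMP1 transcript was lower in TIMP1 KO 1 but remained abundant. Normalised counts were 2285, 2826 and 2959 in the CRISPR Control replicates and 1562, 1624 and 1613 in the TIMP1 KO 1 replicates. The groups did not overlap, and the knockout line held 59.5% of the control level (log2 fold change -0.74 ± 0.09 (SE), adjusted p = 6.5e-07). WT held 3553 ± 274 (SD, n = 3) and TIMP1 KO 2 1161 ± 28.8. The transcript level of an edited gene does not show whether protein is made from it. TIMP1 lies on the plus strand of the X chromosome inside an intron of SYN1, which is on the minus strand. SYN1 itself was low, with 31.2 ± 7.17 in CRISPR Control and 34.5 ± 1.5 in TIMP1 KO 1, and was not called.

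The targeted exon is the fourth of the 6 exons of the TIMP1 reference transcript and is wholly coding. It is printed here because both knockout clones were cut within it. It spans 127 bases at chrX:47585205-47585331 on the plus strand of GRCh38. Exon bases are in capitals and the 20 intronic bases on each side in lower case, with the ag and gt splice dinucleotides next to the exon.
TIMP1 exon 4: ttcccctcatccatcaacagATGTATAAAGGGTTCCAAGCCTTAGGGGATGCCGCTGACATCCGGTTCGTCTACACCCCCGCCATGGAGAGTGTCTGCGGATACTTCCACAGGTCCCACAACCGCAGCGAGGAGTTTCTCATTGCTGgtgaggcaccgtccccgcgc

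Of the other TIMP genes, TIMP2 was called and TIMP3 and TIMP4 fell under the level filter. TIMP2, an inhibitor that also takes part in MMP2 activation, counted 3797, 4086 and 4396 in CRISPR Control and 1972, 1974 and 1999 in TIMP1 KO 1 (log2 fold change -1.04 ± 0.07 (SE), adjusted p = 3.6e-10). Its 3 knockout libraries lay below the 3 control libraries. TIMP3, an inhibitor held in the matrix, counted 19.9, 20.2 and 35.2 in CRISPR Control and 0, 2.25 and 0 in TIMP1 KO 1, and was not tested. TIMP4 was at most 2.37 in any library. The receptors of TIMP-1 were also lower in TIMP1 KO 1. CD63, a tetraspanin of endosomes and the cell surface, counted 17778, 23216 and 20946 in CRISPR Control and 11307, 12110.4 and 10557 in TIMP1 KO 1 (log2 fold change -0.86 ± 0.09 (SE), adjusted p = 1.3e-07). WT, at 10387 ± 874, was close to the knockout level. CD74, the MHC class II invariant chain, was low in both lines, with 20.7, 23.7 and 33 against 3.24, 10.1 and 8.83 (log2 fold change -1.77 ± 0.35 (SE), adjusted p = 0.00023). In the plot of TIMP1, TIMP2, CD63 and CD74 by library, CRISPR Control stood above WT for the last 3 of these genes and below it for TIMP1.

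**Figure D1:**
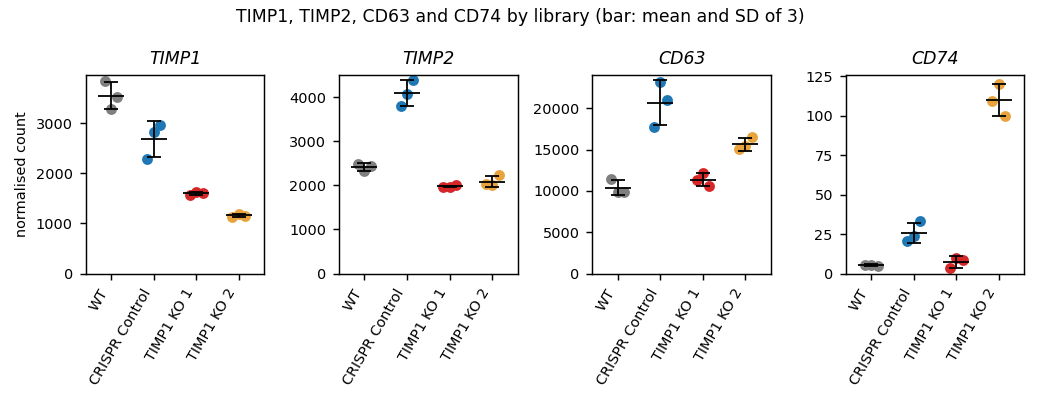
Normalised counts of TIMP1, TIMP2, CD63 and CD74 in each library of the 4 lines, with the mean and SD of 3 libraries as a black bar and whiskers. TIMP1 averaged 2690.4 in CRISPR Control and 1599.6 in TIMP1 KO 1, and the libraries of these lines do not overlap for any of the 4 genes.

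The difference between the 2 lines reached most expressed genes. At an adjusted p under 0.05, 10070 of 15987 genes were called, 63% of those tested. The calls were evenly split, with 5061 genes higher in TIMP1 KO 1 (31.7%) and 5009 lower (31.3%), and the median over all genes was 0.00 on the log2 scale. The 3 libraries of each line did not overlap for 10404 genes (65.1%). Most differences were small, with a median absolute log2 fold change of 0.44. A log2 fold change of 1 or more in size was found for 3383 called genes (21.2%), 1926 higher and 1457 lower. For changes of 3 or more in size, the split turned to 255 higher and 459 lower. Among the 5917 genes not called, the 95% interval of the log2 fold change lay within -0.5 to 0.5 for 3356. A gene group is read below against these shares, so that 31.7% of its members called higher is what all genes show.

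WT lay nearer to TIMP1 KO 1 than to CRISPR Control for most called genes. The mean log2 level of WT was between the 2 lines for 7245 of the 10070 called genes, nearer TIMP1 KO 1 for 4633 (46%) and nearer CRISPR Control for 2612 (25.9%). It lay beyond TIMP1 KO 1 for 1889 and beyond CRISPR Control for 936. Of the 3383 genes with a change of at least 1, 1891 (55.9%) had WT between the lines and nearer TIMP1 KO 1. Many of the genes below therefore had a level in CRISPR Control that differed from unmodified cells as well, and the WT level is given for the main ones. The part that the control line itself plays in a difference was not tested.

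The genes furthest up in TIMP1 KO 1 were near or at the detection floor in CRISPR Control. HOXC12, a homeobox transcription factor of the HOXC cluster on chromosome 12, counted 2.59, 3.56 and 2.2 in CRISPR Control and 3592, 3917 and 3638 in TIMP1 KO 1. All 3 control libraries were at or under 3 reads, and set against that floor the level was 1180.0-fold higher in the knockout line (adjusted p = 5.7e-22). WT, at 2897 ± 95.4, resembled the knockout line. EPHB6, an Eph receptor whose kinase domain is inactive, counted 16.4, 8.3 and 31.9 against 11427, 10770.3 and 12004 (log2 fold change 9.35 ± 0.26 (SE), adjusted p = 2.8e-16). MXRA5, a secreted matrix-remodelling protein, counted 0.864, 2.37 and 2.2 against 1039, 1064 and 912 and was 319-fold higher when set against the floor. For EPHB6 and MXRA5 too, WT was high, with 9010.3 and 1269.

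BMP4, ALPPL2 and EFEMP1 differed from these genes by their lower WT level. BMP4, a bone morphogenetic protein that signals through SMAD1 and SMAD5, counted 13.8, 11.9 and 14.3 in CRISPR Control and 2094, 2134 and 1974 in TIMP1 KO 1 (log2 fold change 7.18 ± 0.23 (SE), adjusted p = 2.3e-15). WT held only 3.87 ± 1.74, and TIMP1 KO 2 164 ± 29.9. Against WT, BMP4 had a log2 fold change of 8.79 in TIMP1 KO 1 (adjusted p = 1.5e-15). ALPPL2, a germ cell alkaline phosphatase, counted 21.6, 21.3 and 30.8 against 2899, 2298 and 2539, with 165 in WT. It has close relatives in the same gene family, so reads may be shared between them. EFEMP1, a fibulin of the extracellular matrix, counted 1.73, 7.12 and 8.79 against 1133, 1190.5 and 1270.3 (log2 fold change 7.64 ± 0.30 (SE), adjusted p = 6.1e-14), with 52.5 in WT.

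The remaining genes of the top 12 were of mixed function. TXNIP, which binds thioredoxin and limits glucose uptake, rose from 10.1 ± 4.87 to 1683 ± 106 (log2 fold change 7.36). PAX2, a transcription factor of kidney and pancreatic development, was 19.8 ± 7.25 in CRISPR Control and 2234 ± 60.8 in TIMP1 KO 1 (6.80). GJB6, a connexin of gap junctions, was 3.21 ± 2.47 against 412 ± 38.7 (6.78). SOWAHB, an ankyrin repeat protein, was 9.67 ± 3.29 against 1082 ± 30.1 (6.72). WT lay between the 2 lines for these 4 genes. TRPV6, an epithelial calcium channel, and TRBC2, a T cell receptor constant segment, completed the list with log2 fold changes of 6.65 and 8.33. Both lie next to EPHB6 on chromosome 7 and are described with that region.

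The genes furthest down, COL5A2 apart, were undetected or nearly so in TIMP1 KO 1, and 8 of the 12 averaged 100 or more in WT. COL3A1, a fibrillar collagen of soft connective tissue, counted 9816, 9670.1 and 9873 in CRISPR Control and 0, 1.13 and 0 in TIMP1 KO 1. This was at least 3168-fold lower, with an adjusted p of 8e-18. WT held 146 ± 9.48, so that CRISPR Control was also far above unmodified cells. COL5A2, a chain of type V collagen that assembles with fibrillar collagens, fell from 34687 ± 1635 to 44.2 ± 4.19 (log2 fold change -9.59 ± 0.09 (SE), adjusted p = 3.7e-23), with 4048 in WT. NTS, the precursor of the gut peptide neurotensin, counted 2165, 2974 and 2444 in CRISPR Control and 0 in every TIMP1 KO 1 library, at least 818-fold lower.

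INA, PPARG, EREG, LYPD6B and KANK4 were likewise at 0 in all 3 TIMP1 KO 1 libraries. PPARG, a nuclear receptor that governs fat cell differentiation and lipid handling, counted 1301, 1428 and 1441 in the control libraries, which put it at least 449.9-fold lower in TIMP1 KO 1. INA, a neuronal intermediate filament, counted 1371, 1503 and 1486 and was at least 470.4-fold lower. EREG, the EGF receptor ligand epiregulin, counted 721, 760.3 and 643 and was at least 229-fold lower. WT held 322 ± 13.4 of PPARG, 282 ± 15.1 of INA and 256 ± 54 of EREG, so that these genes were expressed in both lines with an intact TIMP1. KANK4, a regulator of cytoskeleton and adhesion, was 452 ± 61.8 in CRISPR Control and 306 ± 27 in WT. LYPD6B, a membrane-anchored protein of the Ly6 family, was 661 ± 81.1 in CRISPR Control and 83.2 ± 10.4 in WT.

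TNFRSF11B followed another pattern, with WT close to the knockout line. TNFRSF11B, the secreted decoy receptor osteoprotegerin, counted 1284, 1492 and 1329.7 in CRISPR Control, 0 in TIMP1 KO 1 and 2.63 ± 1.05 in WT. It was at least 443-fold lower in TIMP1 KO 1. AMIGO2, an adhesion protein, was 3082 ± 46.6 in CRISPR Control, 2.29 ± 1.23 in TIMP1 KO 1 and 704 ± 20.9 in WT. TOX3, a nuclear protein linked to breast cancer risk, was 656 ± 32.7, 0.75 ± 1.3 and 44.8 ± 8.45. The plot of 23 of these genes by library shows how far the 2 lines stood apart.

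**Figure D2:**
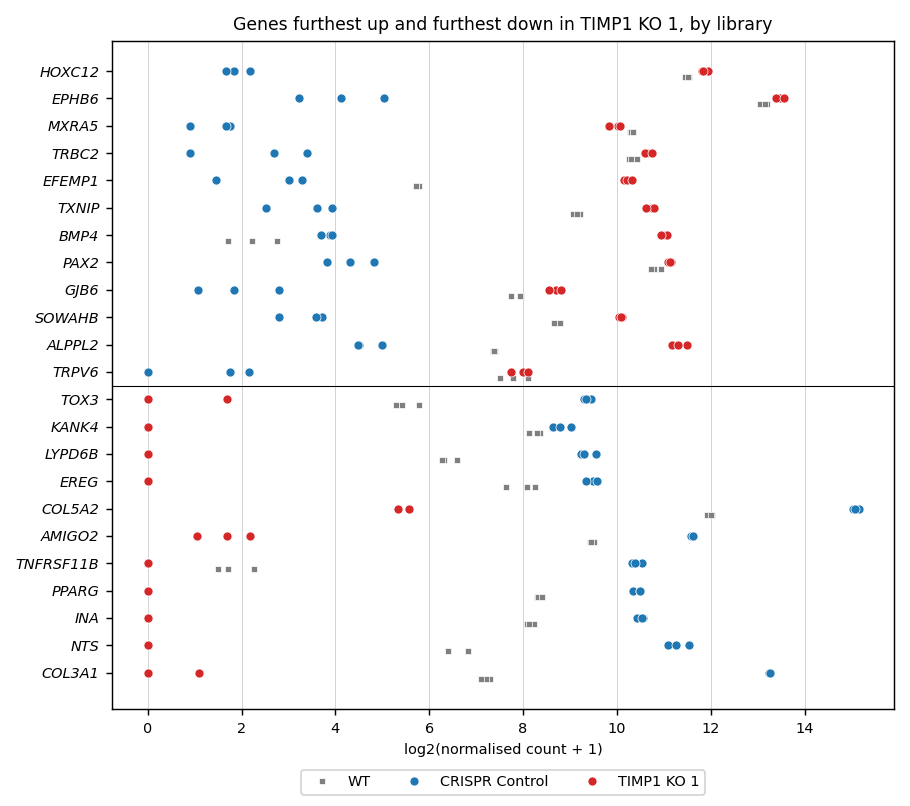
Levels of the 12 genes with the largest positive log2 fold change and 11 of the 12 with the largest negative one, as log2(normalised count + 1) in each library. Blue and red circles are CRISPR Control and TIMP1 KO 1, and grey squares WT; genes were chosen for size of change and for no overlap between these lines, and for 9 of the lower 11 genes at least one TIMP1 KO 1 library is at 0.

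Genes at the floor in TIMP1 KO 1 and expressed in CRISPR Control were far more frequent than the reverse. Called genes with all 3 libraries of one line at or under 3 reads and a mean of at least 100 in the other numbered 52 for TIMP1 KO 1 and 5 for CRISPR Control. The 5 at the floor in CRISPR Control were HOXC12, MXRA5, MMP28, FMOD and ANKRD35. This set was defined after levels had been seen. Of the 52 at the floor in TIMP1 KO 1, WT was at the floor for 5 and above it for 47, but reached 100 for only 8. They included the hepatocyte growth factor gene HGF, at 150.1 ± 11.5 in CRISPR Control, the proteoglycan BGN, at 511 ± 97.3, and the laminin chains LAMA3, at 110.0 ± 11.1, and LAMA4, at 141 ± 17.8. Also among them were MME, a cell surface peptidase, at 127 ± 10.3, and the cholecystokinin gene CCK, at 140.4 ± 37.8. WT held only 0.998 of HGF and 1.06 of MME, so these were not lost relative to unmodified cells. It held 79.9 of BGN, 20.5 of LAMA3, 22 of LAMA4 and 22.4 of CCK.

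The promoters of MXRA5 and NTS are printed as an example of a gene at the floor in each line. RefSeq held a promoter matched by symbol for 37 of the 52 genes at the floor in TIMP1 KO 1. The 250 bases before the start held a median of 11 CpG dinucleotides there, and 62.2% held 10 or more. The median was 21 over the 11488 tested genes with a promoter, of which 84.6% held 10 or more, and it was 21 both for genes called higher and for genes called lower. Of the 5 genes at the floor in CRISPR Control, 2 had a promoter, 1 of them with 10 or more. Methylation was not measured here. CpG dinucleotides are in capitals, each sequence runs 5′ to 3′ towards the start, and the build is GRCh38.p14. MXRA5, at chrX:3346653-3346902 on the minus strand, holds 25 CpG, and NTS, at chr12:85874045-85874294 on the plus strand, holds 2.
MXRA5: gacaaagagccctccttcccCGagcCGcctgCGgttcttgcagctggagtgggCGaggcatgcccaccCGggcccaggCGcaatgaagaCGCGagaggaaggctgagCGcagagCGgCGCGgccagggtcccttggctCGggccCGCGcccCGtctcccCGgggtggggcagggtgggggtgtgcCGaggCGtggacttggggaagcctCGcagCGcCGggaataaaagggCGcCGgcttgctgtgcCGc
NTS: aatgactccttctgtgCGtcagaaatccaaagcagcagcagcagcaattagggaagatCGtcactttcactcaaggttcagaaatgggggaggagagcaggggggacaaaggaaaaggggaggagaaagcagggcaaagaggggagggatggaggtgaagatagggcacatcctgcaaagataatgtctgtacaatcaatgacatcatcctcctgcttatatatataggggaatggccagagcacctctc

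Gene groups by role showed where the differences were one-sided and where they went both ways. Group members beyond the largest change in each direction are named as examples, chosen after their values had been seen. A value in brackets after a gene is its log2 fold change of TIMP1 KO 1 over CRISPR Control. Names are those of the deposited table, so that CTGF is CCN2 and CYR61 is CCN1. The plot of the 28 gene groups gives all members.

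**Figure D3:**
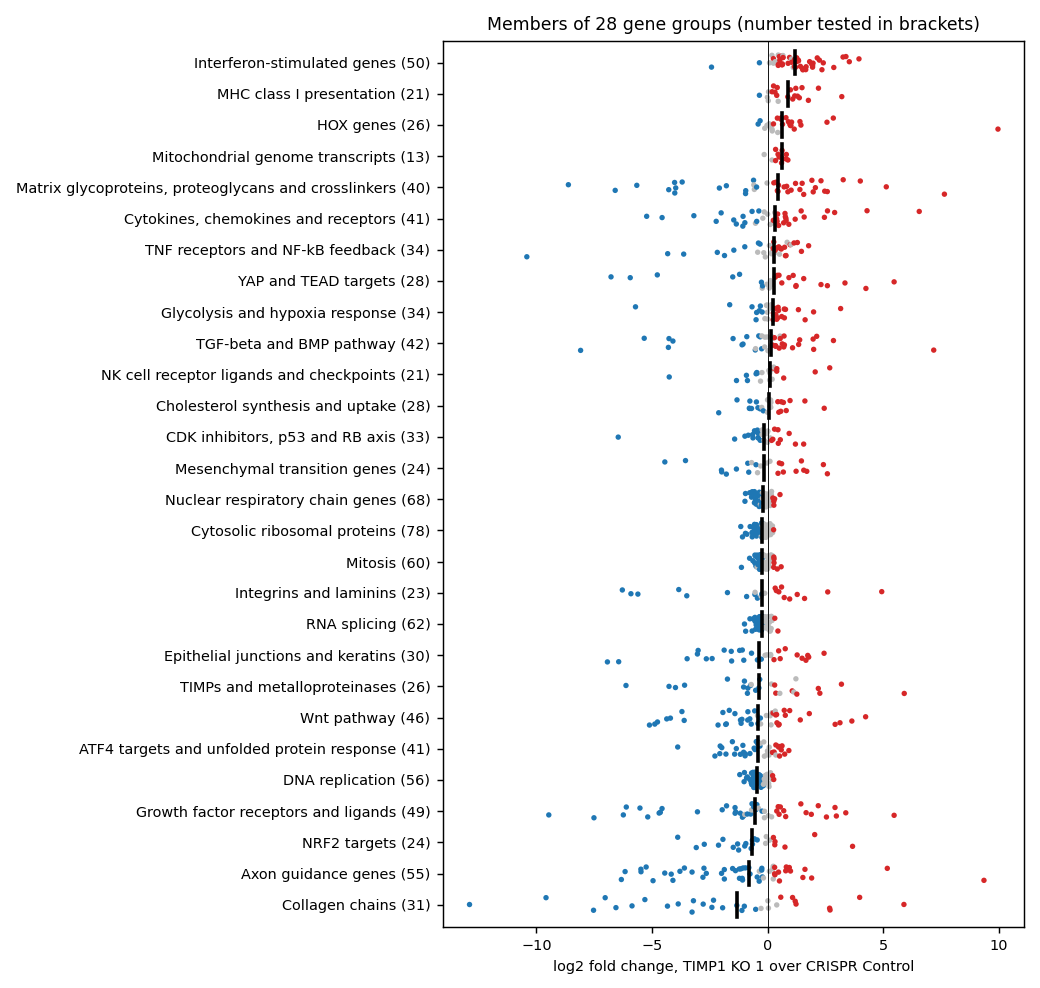
Log2 fold change of TIMP1 KO 1 over CRISPR Control for each tested member of 28 gene groups, with the median of a group as a black bar. Red and blue points were called higher and lower and grey points were not called; medians run from -1.34 for collagen chains to 1.16 for interferon-stimulated genes.

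Collagen transcripts were mostly lower in TIMP1 KO 1, with exceptions that were strongly higher. Of 31 members tested, 8 were called higher and 19 lower, with a median log2 fold change of -1.34. Beside COL3A1 and COL5A2, the chains of basement membrane collagen COL4A1 (at least 54.4-fold lower) and COL4A2 (-6.56) and the fibrillar chain COL11A1 (-7.53) were called lower. COL1A1, the main chain of type I collagen, was higher, with 8906, 7654 and 10044 in CRISPR Control against 64798, 50821 and 54216 in TIMP1 KO 1 (log2 fold change 2.68 ± 0.11 (SE), adjusted p = 2e-13). Its partner chain COL1A2 was nearly undetected in both lines, at 8.56 ± 2.72 in CRISPR Control and 0 in every TIMP1 KO 1 library, while WT held 8217 ± 338. COL6A3, a chain of the microfibrillar type VI collagen, counted 5.18, 5.93 and 4.4 against 399.7, 339 and 352 (log2 fold change 5.89 ± 0.14 (SE), adjusted p = 5.3e-17). COL5A1 (3.97), which pairs with COL5A2 in type V collagen, moved opposite to its partner. Relative to WT the group had a median of -0.82 in TIMP1 KO 1, and against CRISPR Control the WT median was -0.83. These comparisons share libraries.

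Other matrix proteins were called in both directions. Of 40 members tested, 23 were called higher and 14 lower, with a median log2 fold change of 0.43. LTBP1 (2.58) and THBS1 (3.26), which hold and activate latent TGF-beta, were higher, together with TGFBI (4.00), a matrix protein induced by it, and LTBP2 (5.13). BGN, the small proteoglycan biglycan, was at least 165-fold lower, and TNC (-6.60), FN1 (-3.98) and SPARC (-4.03) were called lower too. Fibronectin, encoded by FN1, counted 1009, 671 and 799 in CRISPR Control and 42.1, 58.5 and 53 in TIMP1 KO 1, and WT held 105 ± 12.4. For FN1 the WT level was thus near that of the knockout line.

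Metalloproteinases and their inhibitors, the direct biochemical context of TIMP-1, did not move as a unit. Of 26 members tested, 8 were called higher and 13 lower, with a median log2 fold change of -0.36, and TIMP1 itself is among the lower ones. MMP1, the interstitial collagenase, counted 336, 409 and 423 in CRISPR Control and 2.16, 4.5 and 8.83 in TIMP1 KO 1 (log2 fold change -6.13 ± 0.28 (SE), adjusted p = 8e-13). MMP16 (-4.27), MMP10 (-3.60), MMP2 (-0.88) and MMP14 (-0.35), the last a membrane-bound protease that activates MMP2, were called lower. WT was low for these too, with 25.5 of MMP1, 38.3 of MMP16 and 5.52 of MMP10. Against WT, TIMP1 KO 1 was higher for MMP2 (0.57) and MMP14 (0.29). The group median of WT against CRISPR Control was -0.44, and that of TIMP1 KO 1 against WT was 0.16. ADAM19, a membrane-bound sheddase, counted 624, 454 and 585 against 2675, 2578 and 2617 (log2 fold change 2.25 ± 0.10 (SE), adjusted p = 2.9e-13), with 655 in WT. MMP7 (3.19), ADAM8 (2.19), and RECK (1.06), a membrane-anchored inhibitor of metalloproteinases, were also called higher. MMP9, a gelatinase and main partner of TIMP-1, had a log2 fold change of -0.71 with a 95% interval from -1.38 to -0.04 and was not called.

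Integrins and laminins were split evenly, and individual chains changed strongly. Of 23 members tested, 10 were called higher and 10 lower, with a median log2 fold change of -0.26. The median was 0.35 when only genes with a mean of at least 50 were kept. The group median of WT against CRISPR Control was -0.36, and that of TIMP1 KO 1 against WT was 0.21. ITGA10, a collagen-binding integrin, was 21.9 ± 15.6 in CRISPR Control and 605 ± 65 in TIMP1 KO 1 (4.93), with 327 in WT. The common beta chain ITGB1 (0.95) and the vitronectin receptor chains ITGB3 (2.59) and ITGB5 (1.59) were also higher. ITGA7, a laminin receptor, fell from 654 ± 54.8 to 57 ± 7.19 (-3.50), with 80.1 in WT. ITGB4 (-1.74), a chain of hemidesmosomes, was called lower too.

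Epithelial and mesenchymal genes gave no common direction. Of 30 members tested, 10 were called higher and 16 lower, with a median log2 fold change of -0.36. For the mesenchymal group, of 24 members tested, 10 were called higher and 9 lower, with a median log2 fold change of -0.17. With a level filter of 50 in place of 10 the mesenchymal median was 0.21. The simple epithelial keratins KRT19, KRT8 (1.77) and KRT18 (1.73) were higher in TIMP1 KO 1 than in CRISPR Control. KRT19 counted 3792, 4635 and 5321 against 26463, 23509.7 and 23799.9 (log2 fold change 2.44 ± 0.11 (SE), adjusted p = 2.8e-13), with 15707 in WT. WT held 129995 of KRT8 and 54161 of KRT18, near the TIMP1 KO 1 means of 135667 and 55794. CDH1, or E-cadherin, counted 1487, 1344 and 1442 in CRISPR Control and 125, 158 and 102 in TIMP1 KO 1, while WT held 1189 ± 56.6 (log2 fold change -3.49 ± 0.15 (SE), adjusted p = 2e-13). CDH2, or N-cadherin, fell as well, from 1109.9 ± 65.1 to 93.7 ± 10.1 (-3.56), and WT held 571. Both classical cadherins were therefore lower in TIMP1 KO 1 than in CRISPR Control or WT. PKP2, a desmosomal plaque protein, dropped from 1200.4 ± 39.1 to 9.69 ± 4.65 (-6.93). NT5E, the ectoenzyme CD73 that produces adenosine, rose from 3558 ± 245 to 21244 ± 841 (2.58), and VIM (0.67) and AXL (1.23) were called higher.

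Axon guidance genes, which code for secreted and membrane-bound cues also used by migrating tumour cells, leaned to lower levels. Of 55 members tested, 15 were called higher and 34 lower, with a median log2 fold change of -0.82. The share called lower was 61.8%, beside 31.3% of all genes. The class 3 semaphorins SEMA3E (-6.33), SEMA3A (-5.48) and SEMA3D (-5.26), secreted repellents, were all called lower. SEMA3A counted 3903, 3521 and 3400.0 in CRISPR Control and 65.9, 77.6 and 98.1 in TIMP1 KO 1, with 1099 ± 88.4 in WT. EPHB6, described above, and EPHB2 (1.90), a receptor for ephrin-B ligands, were among the 15 members called higher.

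Growth factor and Wnt genes also had more members lower than higher. Of 49 members tested, 15 were called higher and 27 lower, with a median log2 fold change of -0.55. EREG led the decreases, with VEGFC (-7.51), the lymphatic growth factor, behind it. IGFBP3, a binding protein for insulin-like growth factors, counted 38, 29.7 and 44 against 1615, 1810.4 and 1579 (log2 fold change 5.46 ± 0.13 (SE), adjusted p = 6.5e-17), with 274 in WT. IGFBP6 (3.37) and IGFBP4 (2.18) were also called higher, whereas IGFBP2 (-4.70) was called lower. In the Wnt group, of 46 members tested, 15 were called higher and 24 lower, with a median log2 fold change of -0.40. The Wnt median of WT against CRISPR Control was -0.45, and that of TIMP1 KO 1 against WT was -0.03. SFRP1, a secreted Wnt antagonist, rose from 187 ± 30.8 to 3510.4 ± 127 (4.23). The receptors FZD7 (3.12) and FZD1 (1.80) were higher too, while the WNT5A receptor ROR2 fell from 607 ± 59.2 to 21.5 ± 10.9 (-4.88) and the ligands WNT6 (-4.77) and WNT10A (-3.71) were called lower.

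TGF-beta and BMP genes exchanged ligands between the lines. Of 42 members tested, 18 were called higher and 13 lower, with a median log2 fold change of 0.15. BMP4 and BMP6 (2.84) were called higher, and BMP5, with 2965, 3131 and 2575 against 14, 4.5 and 13.3, and BMP7 (-4.27) were called lower. The fit gave BMP5 a log2 fold change -8.09 ± 0.32 (SE), adjusted p = 6.8e-14. The direct BMP targets ID1 (1.38) and SMAD6 (1.96) were higher. GDF15, a stress-induced secreted factor, fell from 7905 ± 1397 to 397 ± 12.7 (-4.30), and WT held 1740.2 ± 31.2. Among targets of the Hippo pathway effectors YAP and TEAD, of 28 members tested, 14 were called higher and 7 lower, with a median log2 fold change of 0.25. CTGF (2.30) and CYR61 (1.56), often used as readouts, were higher, and DLC1 (-6.78), a tumour suppressor that acts on the cytoskeleton, was lower. AMOTL1 (-5.95), F3 (-4.77) and YAP1 itself (-0.27) were called lower too. AMOTL2 (0.11), AJUBA (0.08) and CRIM1 (0.07) were not called, so the group had no common direction.

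HOX genes, which specify position along the body axis, were mostly higher in TIMP1 KO 1. Of 26 members tested, 17 were called higher and 2 lower, with a median log2 fold change of 0.62. The share called higher was 65.4%, beside 31.7% of all genes. HOXC12 was far outside the range of the others, which ran up to HOXA11 (2.84) and HOXA13 (2.56). HOXC11 (1.39) and HOXC13 (1.03), its neighbours in the HOXC cluster, were moderately higher. HOXC6 (-0.42) and HOXC8 (-0.33) were the 2 members called lower. The group median of WT against CRISPR Control was 0.51, so that unmodified cells resembled the knockout line here.

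Interferon-stimulated genes had the highest share of members called higher among groups with over 20 members, and WT lay close to CRISPR Control. These genes are switched on by transcription factors that interferons activate, STAT2 and IRF9 among them. Of 50 members tested, 40 were called higher and 2 lower, with a median log2 fold change of 1.16. The share called higher was 80%. The topic of this group had been reported for these lines before the group was written, so its direction is not independent evidence. OAS1, a sensor of double-stranded RNA, counted 27.6, 33.2 and 26.4 in CRISPR Control and 414, 555 and 424 in TIMP1 KO 1 (log2 fold change 3.94 ± 0.16 (SE), adjusted p = 8.7e-14). MX1, an antiviral GTPase, counted 70, 99.6 and 74.7 against 730.3, 1195 and 699.6 (log2 fold change 3.38 ± 0.16 (SE), adjusted p = 1.2e-12). IFI6, an interferon-induced membrane protein, counted 181, 196 and 202 against 2579, 2561 and 1689 (log2 fold change 3.53 ± 0.14 (SE), adjusted p = 1e-13). WT levels were 55.7 ± 13.6 for OAS1, 54.6 ± 2.2 for MX1 and 131 ± 16 for IFI6, so that OAS1 was higher in WT than in each control library (29.1 on average there), and MX1 and IFI6 were not.

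Members of the group did not all move alike. IRF9 (1.96), IRF7 (1.50) and STAT2 (1.32) were higher. IFITM2, a restriction factor for viral entry, was called lower, falling from 612 ± 110.4 to 112 ± 7.22 (-2.43), with 569.6 in WT. ISG15 (1.15), IFIT1 (1.94) and PARP9 (2.40) were higher. By library, the median member stood from 1.11 to 1.27 above the CRISPR Control mean on the log2 scale in TIMP1 KO 1, and from -0.16 to 0.03 in WT. In TIMP1 KO 2 it stood from 3.43 to 3.61 above it.

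Stretches of the promoters of these genes are printed because they share the element bound by interferon-activated factors. The letters GAAANNGAAA, searched on both strands in the 250 bases before the start, occurred in 22 of the 38 group members with a RefSeq promoter, against 2.31% of tested genes with a promoter and 3.07% of all 27305 promoters. Of the members called higher, 18 of 32 held it, and of the others 4 of 6. Over all genes called higher the share was 2.3%. The 6 shown have large log2 fold changes among the members called higher that held it. The choice did not cover every chromosome. Each runs 5′ to 3′ towards the start on the gene's own strand, with matches on either strand in capitals. A match is a description of letters and not of binding.
IFI6: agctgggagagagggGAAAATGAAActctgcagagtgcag
EPSTI1: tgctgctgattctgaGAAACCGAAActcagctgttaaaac
LGALS3BP: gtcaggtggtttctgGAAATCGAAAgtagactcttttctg
DDX60L: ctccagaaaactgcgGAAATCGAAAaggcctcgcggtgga
IFIT1: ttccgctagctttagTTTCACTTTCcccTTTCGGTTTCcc
PARP14: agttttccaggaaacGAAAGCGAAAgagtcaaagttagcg
The stretches are IFI6 at chr1:27672324-27672363 (minus strand, log2 fold change 3.53), EPSTI1 at chr13:42992267-42992306 (minus strand, at least 3.05-fold higher), LGALS3BP at chr17:78979957-78979996 (minus strand, log2 fold change 2.23), DDX60L at chr4:168480548-168480587 (minus strand, log2 fold change 1.94), IFIT1 at chr10:89392492-89392531 (plus strand, log2 fold change 1.94) and PARP14 at chr3:122680795-122680834 (plus strand, log2 fold change 1.89), in GRCh38.p14.

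Genes of MHC class I presentation, which display peptides to CD8 T cells and restrain NK cells, were also mostly higher. Of 21 members tested, 16 were called higher and 1 lower, with a median log2 fold change of 0.87. HLA-B counted 427, 559.8 and 598 in CRISPR Control and 2453, 2385 and 2346 in TIMP1 KO 1 (log2 fold change 2.19 ± 0.11 (SE), adjusted p = 1.6e-12). HLA-C (1.29) and HLA-F (1.48) were higher, although reads may be shared between these similar genes. TAPBPL, a peptide editor, rose from 37 ± 13.8 to 332 ± 12.1 (3.20). The light chain B2M (0.41) rose less. The transporter genes TAP1 (0.02) and TAP2 (-0.02) were not called, and the immunoproteasome subunit PSMB9 was called lower (log2 fold change -0.36 ± 0.11 (SE), adjusted p = 0.0095). PSMB9 overlaps TAP1 and PSMB8 on the opposite strand, and its call was lost in 2 of the 6 fits that left out a library, without CRISPR Control replicate 2 and without TIMP1 KO 1 replicate 3. The WT median against CRISPR Control was 0.03.

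Ligands of NK cell receptors were few and split. Of 21 members tested, 6 were called higher and 7 lower, with a median log2 fold change of 0.08. The largest rise was that of RAET1G, an NKG2D ligand of low level, from 9.59 ± 5.38 to 61.2 ± 5.88 (2.68), with 47.6 in WT. TNFSF10, the death receptor ligand TRAIL, rose from 7.68 ± 5.48 to 30.6 ± 1.8 (2.05). CD58, the ligand of CD2, rose from 243 ± 20.4 to 393 ± 24.3 (0.69), and HLA-E (0.39) and NECTIN2 (0.39) were called higher. NECTIN3, an adhesion protein of the nectin family, fell from 531 ± 65.1 to 26.9 ± 4.42 (-4.26). Of the other NKG2D ligands, ULBP1 (-0.50), ULBP2 (-1.35) and ULBP3 (-0.46) were called lower. WT held 81.1 of ULBP1, 45.6 of ULBP2 and 147 of ULBP3, beside 253, 74.2 and 207 in CRISPR Control. Against WT, TIMP1 KO 1 was higher for ULBP1 (1.14), lower for ULBP2 (-0.65) and close to WT for ULBP3 (0.04). The DNAM-1 ligand PVR (-0.47), the checkpoint protein CD276 (-0.88) and FAS (-0.92) were also called lower than in CRISPR Control. MICA had a log2 fold change of 0.19, with a 95% interval from -0.04 to 0.42, and was not called.

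In the cytokine group the largest change was that of a chemokine. Of 41 members tested, 21 were called higher and 13 lower, with a median log2 fold change of 0.30. CX3CL1, the membrane-bound chemokine fractalkine that attracts NK and T cells, counted 143, 115 and 158 in CRISPR Control and 12679, 12855 and 13406 in TIMP1 KO 1 (log2 fold change 6.55 ± 0.09 (SE), adjusted p = 2.2e-20). WT held 3968 ± 209, between the lines. CCL2 (1.19) and IL32 (2.58) were higher. IL18, an activator of NK cells, counted 1159, 1515 and 1206 against 64.8, 41.6 and 55.7 (log2 fold change -4.57 ± 0.15 (SE), adjusted p = 3.3e-15), with 241 in WT. Among TNF receptors and NF-kB feedback genes, of 34 members tested, 15 were called higher and 9 lower, with a median log2 fold change of 0.28. TNFRSF11A, the receptor RANK, rose from 829 ± 33.7 to 2824 ± 81.6 (1.77), opposite in direction to TNFRSF11B, the decoy that captures the ligand of RANK. Before scaling, TNFRSF11A had 2118, 2609 and 2607 reads in WT and 2651, 2426 and 3257 in TIMP1 KO 1. For these genes WT was thus closer to TIMP1 KO 1 than to CRISPR Control. BIRC3 (1.28), TNFAIP3 (0.97) and RELB (0.79), induced by NF-kB, were called higher.

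**Figure D4:**
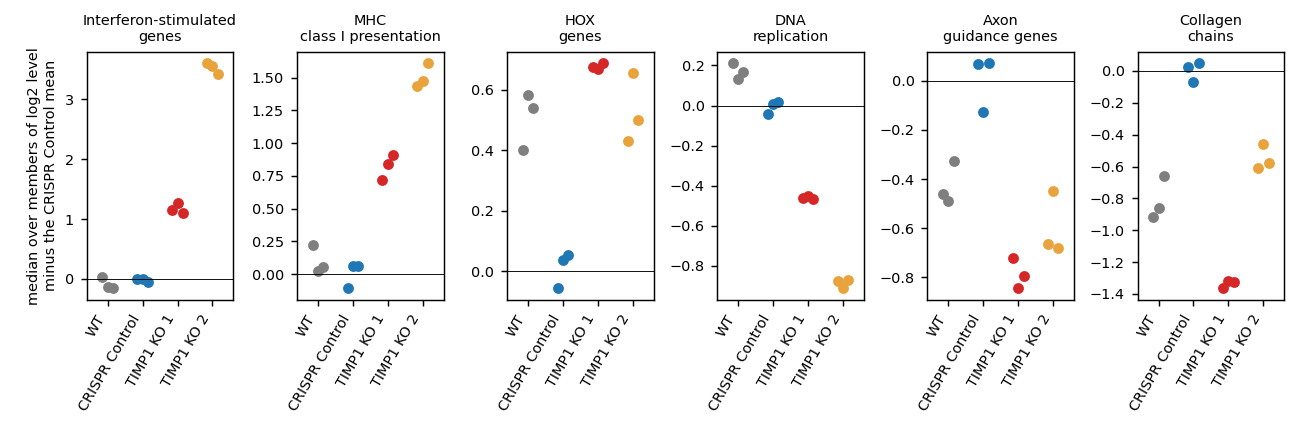
Median over the members of 6 gene groups of the log2 level minus the CRISPR Control mean of each member, one point per library; the vertical scales differ between panels. For interferon-stimulated and replication genes WT lies near CRISPR Control, and for HOX genes nearer TIMP1 KO 1.

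DNA replication genes were lower in TIMP1 KO 1 by small but regular amounts. Of 56 members tested, 2 were called higher and 40 lower, with a median log2 fold change of -0.48. The share called lower was 71.4%, beside 31.3% of all genes, and only 3 members fell by 1 or more on the log2 scale. GINS2, a part of the replicative helicase, counted 1246, 1435 and 1560.4 against 564, 611 and 652 (log2 fold change -1.21 ± 0.10 (SE), adjusted p = 5.4e-09). The origin licensing genes CDC6 (-1.01), ORC6 (-1.02) and MCM6 (-0.88) were called lower. LIG1, the ligase that joins lagging strand fragments, was higher, from 1221 ± 95.7 to 1459 ± 49.7 (log2 fold change 0.26 ± 0.08 (SE), adjusted p = 0.0065). WT was above CRISPR Control in this group, with a median of 0.16, and TIMP1 KO 1 had a median of -0.57 against WT. In the mitosis group, of 60 members tested, 6 were called higher and 31 lower, with a median log2 fold change of -0.25. CDC25B, a phosphatase that activates CDK1, fell from 13239.8 ± 1054 to 6009.9 ± 224 (-1.14), as did PLK1 (-0.64) and CCNB1 (-0.56), while the kinesin KIF18A rose (0.58).

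Genes of the CDK inhibitor, p53 and RB axis did not share a direction. Of 33 members tested, 9 were called higher and 13 lower, with a median log2 fold change of -0.16. CDKN1A, the CDK inhibitor p21, counted 1351, 1518 and 1614 against 3430.1, 3401 and 3427 (log2 fold change 1.20 ± 0.08 (SE), adjusted p = 1e-10), with 1140.4 in WT. TP53INP1, a stress-induced cofactor of p53, rose from 246 ± 57.3 to 711 ± 23.5 (1.55). SESN2, a sestrin that restrains mTORC1, fell from 1046 ± 123 to 386 ± 15.1 (-1.43), and CCNE1 (-0.99) and CDK4 (-0.66) were called lower.

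Splicing and ribosomal genes were lower or not called, with very few exceptions. Of 62 members tested, 2 were called higher and 40 lower, with a median log2 fold change of -0.27. SF3B6 (-1.01), a subunit of the SF3B complex that recognises the branch point, had the largest decrease, and EFTUD2 (0.44) and SRSF11 (0.31) were the members called higher. For ribosomal proteins, of 78 members tested, 1 was called higher and 39 lower, with a median log2 fold change of -0.23. Their median was -0.29 for WT against CRISPR Control and 0.04 for TIMP1 KO 1 against WT. RPL32 counted 15787, 20015 and 18419.8 against 7302, 8715 and 8101 (log2 fold change -1.17 ± 0.09 (SE), adjusted p = 2.7e-09). RPL14 (-1.09) and RPSA (-0.96) fell next most, and these 3 genes all lie on chromosome 3. Many ribosomal genes have processed pseudogene copies, so their reads may be split.

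Mitochondrial and nuclear genes of respiration moved apart. Of 13 members tested, 11 were called higher and 0 lower, with a median log2 fold change of 0.60. MT-ATP6, a subunit of ATP synthase, counted 11608, 11325 and 12899 against 19673, 23899 and 22114 (log2 fold change 0.87 ± 0.11 (SE), adjusted p = 1.1e-06). Transcripts of the mitochondrial genome took 0.542 to 0.583% of reads in CRISPR Control and 0.77 to 0.937% in TIMP1 KO 1, and the part of RNA quality in this was not tested. In the nuclear group, of 68 members tested, 5 were called higher and 30 lower, with a median log2 fold change of -0.19. Its median was -0.13 for WT against CRISPR Control and -0.03 for TIMP1 KO 1 against WT. For the mitochondrial transcripts both of these medians were 0.25. UQCRC1 (-0.99), a core subunit of complex III, fell most, and ATP5F1D (0.53), a subunit of ATP synthase, rose most.

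Glycolysis and hypoxia genes were more often higher. Of 34 members tested, 18 were called higher and 8 lower, with a median log2 fold change of 0.24. The group median was 0.18 for WT against CRISPR Control and 0.05 for TIMP1 KO 1 against WT. NDRG1, a hypoxia-induced stress gene, counted 509.6, 452 and 522 against 4099, 4710.0 and 4399 (log2 fold change 3.15 ± 0.08 (SE), adjusted p = 2.2e-16), with 2303 in WT. PFKL (1.62) and PGK1 (0.60), enzymes of glycolysis, were called higher, and ADM, the vasodilator adrenomedullin, fell from 6515 ± 717 to 2077 ± 129.7 (-1.64). Among cholesterol genes, of 28 members tested, 9 were called higher and 10 lower, with a median log2 fold change of 0.07. Without CRISPR Control replicate 1 that median was -0.0022. TM7SF2 (2.44), a sterol reductase of late synthesis, was higher, while HMGCS1 (-1.33), an early enzyme, and the sterol carrier STARD4 (-2.12) were lower.

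Amino acid and oxidative stress genes were more often lower than higher in TIMP1 KO 1, and their WT medians were below CRISPR Control as well. Of 41 members tested, 10 were called higher and 22 lower, with a median log2 fold change of -0.43. For targets of NRF2, the regulator of antioxidant genes, of 24 members tested, 6 were called higher and 15 lower, with a median log2 fold change of -0.66. SLC7A11, the cystine transporter that feeds glutathione synthesis and belongs to both groups, counted 1312, 1098 and 902 against 65.9, 81 and 71.6 (log2 fold change -3.89 ± 0.14 (SE), adjusted p = 1.6e-14), with 133 ± 12.9 in WT. CHAC1 (-2.28), DDIT3 (-1.81) and ASNS (-2.07), targets of ATF4, were lower, whereas the endoplasmic reticulum chaperone HSP90B1 (0.91) and HYOU1 (0.47) were higher. HMOX1, or heme oxygenase 1, fell from 8120.1 ± 973 to 948 ± 21.1 (-3.09), with 1227 in WT, and FTH1 (-1.94) and TXNRD1 (-1.49) fell with it. ABCC3, a drug and bile salt exporter, rose from 1252 ± 141 to 5102 ± 255 (2.03), and PGD (0.75), an enzyme of the pentose phosphate pathway, was also called higher. The WT medians against CRISPR Control were -0.49 for the ATF4 group and -0.38 for the NRF2 group.

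Differences were unevenly placed along the genome. Chromosome 3 had 420 of 862 tested genes called lower (48.7%) and 178 called higher, with a median log2 fold change of -0.27. Chromosome 5 had a median of -0.27 and chromosome 2 of -0.23. In the other direction, 307 of 506 genes of chromosome 14 (60.7%) and 94 of 165 of chromosome 21 (57%) were called higher, with medians of 0.42 and 0.45. WT against CRISPR Control had medians of -0.25 on chromosome 3, 0.31 on chromosome 14 and 0.47 on chromosome 21. TIMP1 KO 1 against WT had -0.04, 0.12 and 0.09 on the same chromosomes. Gene dosage was not measured here.

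**Figure D5:**
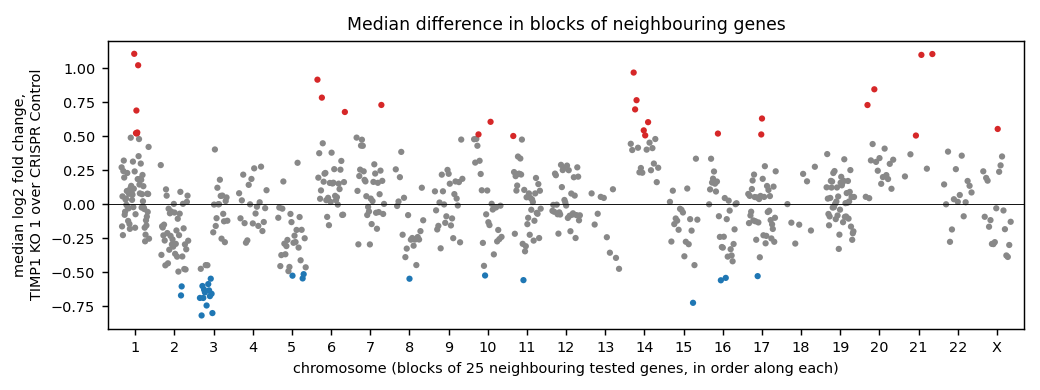
Median log2 fold change of TIMP1 KO 1 over CRISPR Control in consecutive blocks of 25 neighbouring tested genes, in order along each chromosome. Red and blue blocks have medians of at least 0.5 or at most -0.5; most blocks of chromosome 3 lie below 0 and those of chromosomes 14, 20 and 21 mostly above.

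Windows of 25 neighbouring tested genes, moved one gene at a time, had an absolute median of at least 0.5 in 8.04% of 15331 windows. The highest lay on chromosome 21 at chr21:33589341-37019662, from CRYZL1 to RIPPLY3, with a median of 1.16 and 14 genes called higher. The next 2 were at chr1:78649796-85584589, with 1.13 and 20 genes higher, and at chr21:44215382-45513720, with 1.10 and 18 genes higher. The 3 lowest all lay on chromosome 3. They were chr3:33388336-38649687, with a median of -0.86 and 21 genes called lower, chr3:68975217-87255556, with -0.83 and 18, and chr3:12582101-15450635, with -0.82 and 19. These windows were picked for their extreme medians, which are given as a description. Neighbouring genes are not independent of each other, and coordinates are those of GRCh38.

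Around EPHB6 on chromosome 7 a run of genes was at or near 0 in CRISPR Control and expressed in the other lines. This region was chosen after its values had been seen. Within 1 Mb of EPHB6, 15 genes were tested, of which 11 were called higher and 4 lower. TRBC2, at chr7:142801041-142802748, counted 0.864, 9.49 and 5.49 in CRISPR Control and 1603, 1544 and 1723 in TIMP1 KO 1. TRPV6, at chr7:142871208-142885745, counted 3.45, 2.37 and 0 against 255, 214 and 276. TCAF2, a regulator of TRP channels, at chr7:143620952-143730410, averaged 2.54 ± 1.77 against 279.8 ± 35.2. WT held 1291, 226 and 399 of these genes, and TIMP1 KO 2 held 2322, 954 and 499.7. The genes called lower were FAM131B (-2.84), CLCN1 (-1.12), ZYX (-0.95) and CASP2 (-0.27). GSTK1 (0.23) and CASP2, which lie between TRPV6 and TCAF2, stayed well expressed in CRISPR Control, at 2599 ± 197 and 2068 ± 217.

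Shorter windows of 15 genes pointed to 2 further runs. The highest, at chr6:485154-2881407, held the forkhead transcription factor genes FOXQ1, FOXF2 and FOXC1. FOXQ1 averaged 57.7 ± 3.41 in CRISPR Control, 2448 ± 122 in TIMP1 KO 1 and 2073 ± 19.9 in WT (log2 fold change 5.38 ± 0.08 (SE), adjusted p = 4.4e-20). FOXF2 (4.25) and FOXC1 (1.56) were higher as well. The lowest, at chr7:77657659-85187056, held SEMA3A, SEMA3C (-1.88), SEMA3D and SEMA3E together with HGF and CD36. CD36, a fatty acid receptor, was 79.4 ± 17.6 in CRISPR Control and 0 in every TIMP1 KO 1 library. Its WT level was 0.303 ± 0.525. The fall of class 3 semaphorins described with the guidance genes thus concerned genes that lie side by side.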

How the data were processed

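RNA of 4 MIA PaCa-2 lines was sequenced in 3 libraries each, and the 6 libraries of TIMP1 KO 1 and CRISPR Control were compared. The authors trimmed reads with Cutadapt, aligned them to GRCh38 by STAR, assigned them to genes by featureCounts and scaled each library with its DESeq2 size factor, so that the deposited values are a signal of scaled reads per gene. This scaling sets the typical gene equal between libraries and would hide a shift of most genes. The strand setting and the annotation release are not given in the sources used here, and 58.9% of tested genes overlap a gene on the opposite strand, whose reads may be mixed in. Gene positions and overlaps come from GENCODE release 44.

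Groups were taken from the sample titles. Of the table, 4 columns of line means were not used. Values were whole multiples of one step per library, and dividing by it gave whole reads for 100% of values within 0.01 reads, hence the depth and the floor of 3 reads, the limit a count of 0 allows. Floors and bounds cover counting error only. A bound divides the mean of the higher line by the mean floor of the lower line's libraries. Where the lower line held some reads, the bound is relative to this floor and is not a strict limit.

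The test was limma 3.58.1 in R 4.3.3, with a trend, on log2(normalised count + 1), over 15987 genes with all 12 libraries in the fit. The method was tested on simulated data. P-values were two-sided and adjusted by Benjamini-Hochberg over all tested genes with a threshold of 0.05, and a called gene is one that passed. Log2 fold changes on this scale understate changes of low genes. Alternatives were another pseudocount, filter or scaling, a replicate block, the 6 libraries alone, limma without a trend, leaving out a library, and edgeR 4.0.16 and DESeq2 1.42.0 on recovered reads of 11 libraries. TIMP1 KO 2 replicate 3 was left out of the last 2, as its step could not be told from 1 with certainty.

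Named genes were TIMP1, its relatives, CD63 and CD74, the 12 largest changes in each direction among called genes with a mean of at least 100 over the 6 libraries and no overlap between the lines, and the largest called change in each direction of each of 28 groups. The comparison, groups and rules were chosen with earlier results of these data known. Some genes that these rules name are not reported here.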

Additional observations from a re-analysis of the deposited data

How the results depend on the processing

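Over all 18 refits of the comparison the count of called genes ran from 8643 to 10701 beside 10070, the lowest with genes of a mean of at least 50 only, the highest with no filter on low values. The edgeR quasi-likelihood test called 10043 genes and DESeq2 9955, of which 9891 and 9817 were among the 10070. Leaving out one library gave 9191 to 10001. Requiring a log2 fold change of at least 1 left 3383 genes, 1926 higher and 1457 lower. TIMP1 kept its direction and its call in every refit, from -0.85 to -0.67. Replicate numbers did not pair the libraries: deviations of same-numbered libraries from their line means correlated with -0.0095, 0.044 and 0.055, and 2 of 3 TIMP1 KO 1 libraries correlated best with their own number. With the replicate block 10030 genes were called, and no named gene lost its call.

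All 504 counts of group members called under these alternatives stayed within 1.5 times the reported count, and 1306 of 1313 values of named genes kept direction and side of the threshold; in the 7 exceptions, PSMB9 among them, the call was lost. With genes of a mean of at least 50 the medians of integrins and laminins (0.35) and of mesenchymal genes (0.21) turned positive, since fewer genes were tested. The cholesterol median ran from -0.0022 to 0.126 when one library was left out. Putting genes at the floor at their bounds shifted group medians by at most 0.10. With windows of 15 genes the highest and lowest medians were 1.80 and -2.18. WT lay between the lines for 82.6% of called genes with a change of at least 1 and for 71.9% of all called genes. At these depths, levels under about 3 normalised counts cannot be told from 0.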

Other observations

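Long non-coding RNAs were more often higher than lower in TIMP1 KO 1. Of 2024 tested, 699 were called higher and 252 lower, with a median log2 fold change of 0.29. Of 13221 protein-coding genes, 4228 were called higher and 4616 lower, with a median of -0.03. Processed pseudogenes leaned the other way, with 47 of 442 called higher and 97 lower and a median of -0.25. Reads of pseudogenes cannot always be told from those of their parent genes, and the strand setting bears on antisense RNAs.

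A few genes were low in both lines and high in unmodified cells. With a mean under 10 in both TIMP1 KO 1 and CRISPR Control and of at least 100 in WT, 6 genes were found. COL1A2, a chain of type I collagen, averaged 8217 ± 338 (SD, n = 3) in WT, 8.56 ± 2.72 in CRISPR Control and 0 in both knockout lines. UCA1, a long non-coding RNA described in bladder carcinoma, averaged 359 ± 42.4 in WT, 0.654 ± 0.579 in CRISPR Control and 0 in both knockout lines. PRND, which encodes the prion-like protein doppel, averaged 126 ± 15.3 in WT and was at 0 in all 9 edited libraries. LTBR, the lymphotoxin beta receptor, averaged 363 ± 22.4 in WT, 2.04 ± 2.21 in CRISPR Control, 3.38 ± 0.146 in TIMP1 KO 1 and 3.01 ± 0.511 in TIMP1 KO 2. LINC02154 and TPRG1 were the others. COL1A2, LINC02154 and TPRG1 were also called between TIMP1 KO 1 and CRISPR Control, with log2 fold changes of -3.21, -1.42 and 1.92. No gene showed the opposite pattern at these limits.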
